A study of Mus musculus with 6 samples.

Results

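The mitochondrial genome of the mouse gives rise to 37 RNAs: 13 mRNAs, 2 rRNAs and 22 tRNAs. They were taken here as all rows of the deposited count table whose symbol starts with mt-, which found 37 of 56674 rows. The RNA came from livers of male C57BL/6 mice, all reared over 71 weeks, which received either normal chow or a chow with polyethylene microplastic (PE-MP). Each chow has 3 libraries, numbered 1 to 3, and the study asked how prolonged feeding of the plastic affects expression in liver. All mice shared strain, sex, tissue and rearing time, and the labels name no transgene, dose, cage or batch. They do not state that each library is a separate animal. The p-values then measure only library-to-library spread, which may be technical.

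Mitochondrial DNA is transcribed from both strands into long precursor RNAs. The tRNAs lie between most of the longer genes and are cut out, which releases the mRNAs and rRNAs. The mRNAs code for core subunits of respiratory complexes I, III and IV and of the ATP synthase, and the rRNAs and tRNAs serve the translation of those mRNAs inside the organelle. All other subunits, and every subunit of complex II, are made from nuclear genes. The strand that carries most genes is called the major strand here. It holds 12 mRNAs, both rRNAs and 14 tRNAs in the GENCODE M21 annotation, and the minor strand holds 1 mRNA, mt-Nd6, and 8 tRNAs. Per the labels, the libraries were made by poly(A) selection with a directional kit, and mature tRNAs carry no long poly(A) tail. Counts of tRNA and rRNA rows are therefore levels in these libraries and not amounts in the cell.

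Several of these genes share bases with a neighbour, and this bears on what their rows count. The largest overlap on the same strand joins mt-Atp8 and mt-Atp6, 2 ATP synthase subunits read from 1 mRNA, and the other joint mRNA codes for the complex I subunits mt-Nd4l and mt-Nd4. The last 60 bases of the upstream gene and the first 60 of the downstream gene are printed for each pair, with the shared bases in capitals. All sequences are from the GENCODE M21 transcripts (build GRCm38), where all 37 genes were found.
mt-Atp8: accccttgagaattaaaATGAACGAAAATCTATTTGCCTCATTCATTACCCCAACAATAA
mt-Atp6: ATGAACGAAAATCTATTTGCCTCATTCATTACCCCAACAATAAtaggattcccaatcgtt
mt-Nd4l: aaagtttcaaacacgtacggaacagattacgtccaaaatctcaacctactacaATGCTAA
mt-Nd4: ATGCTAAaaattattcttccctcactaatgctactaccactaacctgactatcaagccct
The first pair shares 43 bases and the second shares 7.

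Of the 22 tRNA genes, 6 share between 1 and 5 bases with other genes on either strand. They are shown whole, with the shared bases in capitals, because 5 of the 6 were listed at a count of 1 in every library or, for mt-Ts1, at 1 in 5 libraries and 2 in normal chow library 3.
mt-Ti: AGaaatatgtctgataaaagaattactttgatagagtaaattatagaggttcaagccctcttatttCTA
mt-Tq: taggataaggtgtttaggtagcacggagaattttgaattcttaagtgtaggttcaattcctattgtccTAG
mt-Tw: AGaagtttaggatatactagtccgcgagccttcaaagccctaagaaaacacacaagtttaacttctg
mt-Ts1: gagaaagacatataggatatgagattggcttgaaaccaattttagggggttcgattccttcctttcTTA
mt-Tl2: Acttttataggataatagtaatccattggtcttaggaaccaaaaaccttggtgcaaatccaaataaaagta
mt-Ts2: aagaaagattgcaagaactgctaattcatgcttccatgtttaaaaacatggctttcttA
The isoleucine tRNA mt-Ti, the glutamine tRNA mt-Tq, the tryptophan tRNA mt-Tw, the serine tRNA mt-Ts1 and the leucine tRNA mt-Tl2 are the 5 at 1 or 2 counts. The serine tRNA mt-Ts2 shares 1 base with mt-Tl2 and had 1026 to 3889 counts. None of the 16 tRNAs without an overlap was at 1 or 2 in all libraries. Their counts and those of mt-Ts2 ran from 6 to 102206. In all, 223 of the 56674 rows stood at exactly 1 in all 6 libraries, although the libraries differed in depth, so a 1 in these rows is not read as 1 sequenced fragment.

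The whole libraries held 68357478 to 112566641 counts, at which 1 count equals 0.00888 to 0.0146 CPM (counts scaled to a library size of 1e6). Total counts did not separate the chows. All 12 hepatocyte markers had counts, with a summed level of 66692 to 86404 CPM under normal chow and 95870 to 101519 under PE-MP chow. On the TMM scale their median log2 fold change was 0.016, with 8 positive and 4 negative. Levels in CPM of total counts were higher in all PE-MP libraries for 34.6% of all genes tested, and the marker sums that follow are on that scale. Markers of Kupffer cells (87.6 to 123 against 164 to 250 CPM in sum, 8 of 8 detected), endothelial cells (93.4 to 121 against 158 to 205 CPM, 8 of 8), neutrophils (0.657 to 0.949 against 2.21 to 2.47 CPM, 4 of 5, Ly6g at 0) and the red cell lineage (234 to 474 against 537 to 671 CPM, 5 of 5) were also higher in sum in all PE-MP libraries. Of the 5 red cell genes 2 did not overlap between chows, while the heme synthesis gene Alas2 did, with means of 66.4 and 65.5 CPM. B and plasma cell markers were lower (17.4 to 51.5 against 7.53 to 11.02 CPM, 6 of 6), and those of stellate cells, cholangiocytes, T and NK cells and adipocytes overlapped. Of 5 markers of skeletal muscle, a tissue rich in mitochondria, Ckm, Myh1, Myh4 and Tnnt3 had no count in any library, and the sum of all 5 was at most 0.0453 CPM. RNAs retained in the nucleus took 0.0207% to 0.0508% of counts under normal chow and 0.0579% to 0.0844% under PE-MP chow. Normal chow library 2 stood apart by the ribosomal RNA row Rn18s-rs5, with 11.2% of its counts against 0.334% to 5.98% in the others. The part of these differences in the results on mitochondrial RNA was not tested. In a bulk sample, fewer cells of a type and less RNA per cell cannot be told apart.

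Mitochondrial RNA took a smaller share of the library in every PE-MP sample. All 37 rows together held 14.9%, 16.4% and 16.0% of all counts under normal chow (libraries 1, 2 and 3, an order kept throughout) and 10.1%, 9.71% and 9.99% under PE-MP chow. The mRNAs made up nearly all of this, at 14.2%, 14.5% and 15.1% against 8.90%, 8.63% and 9.19%. The groups did not overlap, and the PE-MP mean was 0.610 times the normal chow mean (two-sided exact permutation p = 0.1, the smallest that 3 against 3 libraries can give). The tRNA share was 0.145%, 0.206% and 0.274% under normal chow and 0.115%, 0.0951% and 0.122% under PE-MP chow, again without overlap (0.531 times, exact permutation p = 0.1). Its normal chow libraries were far more spread than those of the mRNAs. The rRNA share did not separate the chows. It was 0.495%, 1.70% and 0.658% against 1.12%, 0.982% and 0.682%, a ratio of 0.978 (exact permutation p = 1). That ratio rested on normal chow library 2: without it the log2 ratio was 0.69, with PE-MP chow higher.

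**Figure D1:**
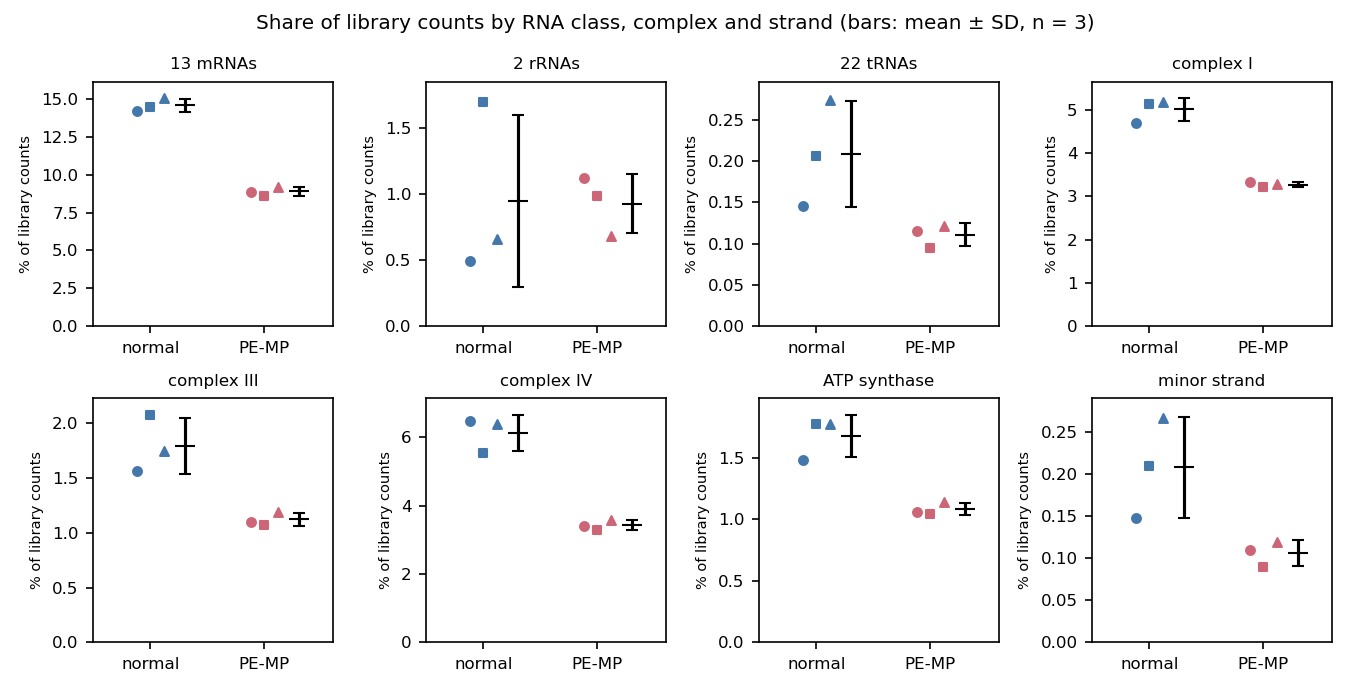
Percent of library counts (y axis) held by each RNA class, respiratory complex and the minor strand, by chow (x axis); each symbol is 1 library and the black bar is the mean ± SD of 3. The 2 chows do not overlap for mRNAs, tRNAs, any complex or the minor strand, and overlap for the rRNAs, where normal chow library 2 (square) is highest at 1.70%.

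At the level of single genes, 31 of the 37 rows passed edgeR's expression filter: all 13 mRNAs, both rRNAs and 16 tRNAs. Not tested were the 5 tRNAs at 1 or 2 counts and the phenylalanine tRNA mt-Tf, which had 6 to 21 counts. All 31 had a negative log2 fold change (PE-MP over normal chow, scaled by TMM factors), with a median of -1.09 against 0.018 over all 18043 genes tested. Their edgeR adjusted p lay between 0.0599 and 0.916, so 0 of 31 passed the threshold of 0.05, against 0% of all genes lower and 0.00554% higher. At an adjusted p under 0.1, 6 members were lower, against 0.161% of all genes. With an unadjusted p under 0.05 the count was 27 lower and 0 higher, against 8.82% of all genes lower and 9.1% higher. DESeq2, an alternative count model, called 25 of the 31 lower and 0 higher (3.48% and 3.1% of all genes), and limma-voom called 4 lower and 0 higher (0.0665% and 0.0388%). Without normal chow library 2, edgeR called 16 members lower, where 3.27% of all genes were. By CPM of total counts, every PE-MP library lay below every normal chow library for 22 of 37 rows, 11 mRNAs and 11 tRNAs, against 2.65% of all genes tested. No mitochondrial row lay wholly above, where 34.6% of all genes tested did.

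The fold changes depend on the scaling by a common shift. Without TMM factors, which ranged from 0.879 to 0.923 under normal chow and from 1.07 to 1.17 under PE-MP chow, the median over all genes moved to 0.32. The median of the 13 mRNAs moved with it, from -1.02 to -0.73. At an unadjusted p under 0.05, 393 genes were then lower and 4542 higher, where with TMM factors 1591 were lower and 1642 higher. Relative to all genes the mRNAs were thus about as low on either scale, and all 13 were negative on both.

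**Figure D2:**
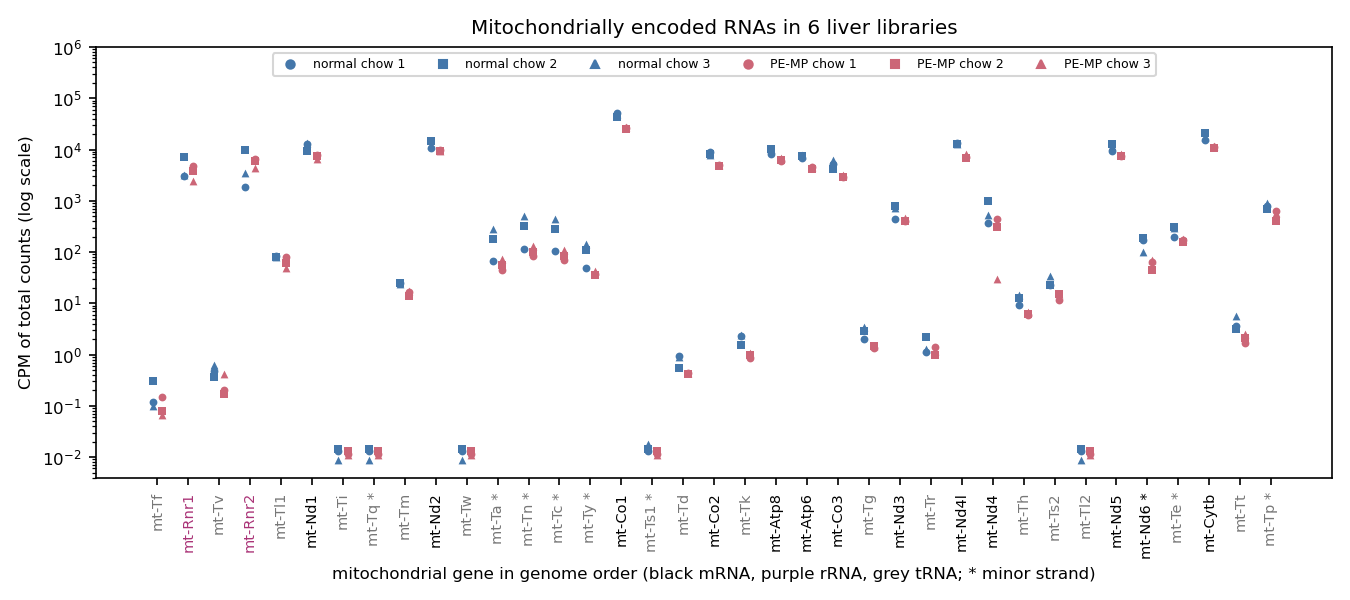
Level of each of the 37 mitochondrial RNAs in CPM of total counts (y axis, log scale) in genome order (x axis), with each symbol 1 library, blue for normal chow and red for PE-MP chow; the names of mRNAs are black, of rRNAs purple and of tRNAs grey. Levels run from about 0.01 CPM for the 5 tRNAs at 1 or 2 counts to 50546 CPM for mt-Co1, and the rRNAs are among the rows where the colours mix.

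Complex IV, cytochrome c oxidase, passes electrons to oxygen, and its 3 mitochondrial subunits form the catalytic core. The row of mt-Co1 was the most abundant by CPM of total counts. It stood at 50546, 42998 and 49831 CPM under normal chow and at 26149, 25332 and 27668 under PE-MP chow, with a wide gap between the chows. Its log2 fold change was -1.16 ± 0.13 (SE, n = 3 per chow; edgeR adjusted p = 0.0599). The copper-binding subunit mt-Co2 was at 8821, 8050 and 7751 CPM against 5017, 4737 and 4924 (log2 fold change -1.05 ± 0.12; edgeR adjusted p = 0.0660). The third subunit, mt-Co3, was at 5222, 4234 and 6167 CPM against 2882, 2914 and 3222 (-1.09 ± 0.16; edgeR adjusted p = 0.0909). None of these 3 genes overlapped between chows, and all had an adjusted p under 0.1.

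Complex I, NADH dehydrogenase, takes electrons from NADH and has 7 mitochondrial subunits. The log2 fold changes of these 7 ran from -1.69 to -0.68 with a median of -1.02. The proton-channel subunit mt-Nd5 stood at 9246, 12711 and 11896 CPM under normal chow and at 7459, 7585 and 8179 under PE-MP chow (log2 fold change -0.85 ± 0.17; edgeR adjusted p = 0.128). The membrane subunit mt-Nd1, whose gene follows the rRNAs and a leucine tRNA, was at 12963, 9467 and 13559 CPM against 7681, 7392 and 6619 (-1.02 ± 0.18; edgeR adjusted p = 0.124). Both were lower in all 3 PE-MP libraries. The smallest difference among the mRNAs was that of mt-Nd2, at 10504, 14531 and 12216 CPM against 9946, 9504 and 9274, with groups that came close (-0.68 ± 0.17; edgeR adjusted p = 0.1504). The short mRNA mt-Nd3, at 444, 804 and 721 CPM against 405, 406 and 461, overlapped between chows through normal chow library 1 (-0.94 ± 0.24; edgeR adjusted p = 0.148).

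The row of mt-Nd4l was tight within each chow, at 13339, 12797 and 12926 CPM against 7307, 6918 and 8127. It had the smallest p of the members, ranking 10 among all genes tested (log2 fold change -1.11 ± 0.12; edgeR adjusted p = 0.0599). Its partner mt-Nd4 was listed at 375, 989 and 539 CPM under normal chow and at 442, 308 and 29.6 under PE-MP chow. These groups overlapped, and they were uneven within PE-MP chow, where library 3 was 14.9 times below library 1 (log2 fold change -1.56 ± 0.94; edgeR adjusted p = 0.427). The genes are read from 1 mRNA, yet per kilobase the mt-Nd4l row was 60.04 to 1275 times the mt-Nd4 row. The sum of both rows was 13715, 13786 and 13465 CPM against 7749, 7226 and 8157, a ratio of 0.565 (exact permutation p = 0.1). The counting rule is not given in the sources used here, and the values of mt-Nd4 are uncertain. A nuclear copy of part of mt-Nd4, Gm28439, held more counts than mt-Nd4 in every library, as described below. With the counts of nuclear copies added to the genes they match, mt-Nd4 had a log2 fold change of -1.12 (edgeR adjusted p = 0.0749). That alternative was chosen after seeing the data.

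The minor-strand subunit mt-Nd6 had the lowest mean of the mRNAs by CPM of total counts in both chows, although mt-Nd4 was lower in PE-MP library 3. Its level was 173, 191 and 102 CPM under normal chow and 63.2, 45.2 and 70.3 under PE-MP chow, without overlap but with normal chow library 3 nearest to the others. The log2 fold change of -1.69 ± 0.28 was the lowest fitted value of any mRNA (edgeR adjusted p = 0.123). Its last bases face those of mt-Nd5, and the 2 genes share 14 bases on opposite strands. Whether the counting used strand is not stated in these sources, so reads of facing genes may not be told apart.

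Complex III has 1 mitochondrial subunit, cytochrome b, encoded by mt-Cytb. It stood at 15648, 20705 and 17409 CPM against 11005, 10712 and 11902, with all PE-MP libraries lower (log2 fold change -0.98 ± 0.16; edgeR adjusted p = 0.123). For the ATP synthase, the proton-channel subunit mt-Atp6 was at 6786, 7490 and 7676 CPM against 4575, 4165 and 4645 (-1.02 ± 0.13; edgeR adjusted p = 0.0724). The short subunit mt-Atp8 was at 8030, 10306 and 10105 CPM against 6064, 6289 and 6759 (-0.88 ± 0.15; edgeR adjusted p = 0.124). Both separated the chows. Per kilobase the mt-Atp8 row was 3.95 to 5.04 times the mt-Atp6 row, a highest value 1.28 times the lowest, where the ratio of mt-Nd4l to mt-Nd4 varied 21.2 times.

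**Figure D3:**
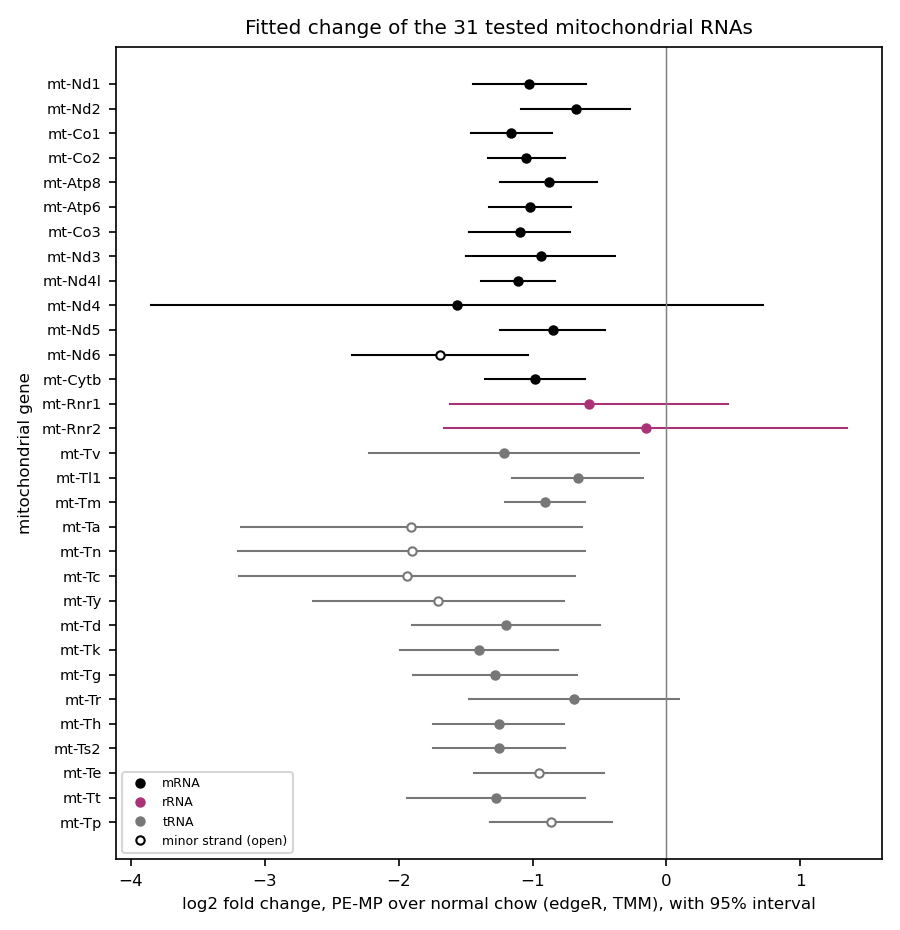
Fitted log2 fold change of each tested mitochondrial RNA, PE-MP over normal chow (x axis; edgeR with TMM factors), with its 95% interval; the y axis lists genes by class in genome order, and open points are on the minor strand. All 31 points lie below 0, and the intervals of mt-Nd4, mt-Rnr1, mt-Rnr2 and mt-Tr include 0.

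As a part of the pool of counts on the 13 mRNA rows, complex I alone of the 4 complexes did not overlap between chows. Of all mitochondrial mRNA counts, complex I took 33.1%, 35.4% and 34.4% under normal chow and 37.4%, 37.3% and 35.7% under PE-MP chow. The means were 2.45 percentage points apart with no overlap (exact permutation p = 0.1). Still, the groups nearly touched, at normal chow library 2 and PE-MP library 3. Complex IV took 45.5%, 38.1% and 42.2% against 38.3%, 38.2% and 39.0% (exact permutation p = 0.4). Normal chow library 2 was below the PE-MP libraries here, while the other normal chow libraries were above. Complex III took 12.3% ± 1.74 against 12.6% ± 0.327 and the ATP synthase 11.5% ± 0.947 against 12.2% ± 0.232 (SD, n = 3 per chow; exact permutation p = 0.8 and 0.3). Among single mRNAs, mt-Nd2 alone did not overlap as a share of this pool, and its groups nearly touched. It was 7.39%, 10.003% and 8.10% under normal chow and 11.2%, 11.01% and 10.1% under PE-MP chow. With n = 3 no exact permutation test of these 4 complexes and 13 mRNAs can go below p = 0.1. The pool leaves out the counts on nuclear copies of mitochondrial genes, which are described below and were uneven between genes. With those counts added to the genes they match, normal chow library 2 lay slightly above PE-MP library 3 for complex I and mt-Nd2. Both separations thus hold only for the pool without them, and shares with them added were not tested.

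Both rRNAs varied widely among the normal chow libraries. The small-subunit rRNA mt-Rnr1 stood at 3084, 7096 and 3163 CPM against 4765, 3780 and 2450 (log2 fold change -0.58 ± 0.43; edgeR adjusted p = 0.514). The large-subunit rRNA mt-Rnr2 was at 1864, 9855 and 3417 CPM against 6442, 6043 and 4366 (-0.16 ± 0.62; edgeR adjusted p = 0.916). In each case normal chow library 2 was the highest of all 6, and the groups overlapped. It was also the library with the most Rn18s-rs5, and the part of that in the rRNA levels was not tested. Of all mitochondrial counts the rRNAs took 3.33%, 10.3% and 4.11% under normal chow and 11.1%, 10.1% and 6.82% under PE-MP chow (exact permutation p = 0.3). The 95% interval of the log2 fold change of mt-Rnr2, -1.66 to 1.35, spans differences of over 1 log2 unit in either direction. Its fitted sign turned positive with total counts (0.15), with limma-voom (0.18), and when normal chow library 2 (0.80) or PE-MP library 3 (0.0032) was left out.

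The tRNA rows spanned several orders of magnitude in these poly(A) libraries. The most abundant, the proline tRNA mt-Tp of the minor strand, stood at 779, 702 and 908 CPM under normal chow and at 625, 411 and 584 under PE-MP chow (log2 fold change -0.86 ± 0.19; edgeR adjusted p = 0.135). On the major strand the first was the leucine tRNA mt-Tl1, which follows mt-Rnr2 directly, at 85.6, 81.2 and 80.3 CPM against 79.8, 61.9 and 49.2 (-0.66 ± 0.21; edgeR adjusted p = 0.190). Neither overlapped between chows, although PE-MP library 1 nearly touched normal chow library 3 for mt-Tl1. The methionine tRNA mt-Tm had the smallest SE of the tested tRNAs, at 24.4, 24.9 and 23.8 CPM against 16.4, 14.02 and 17.7 (-0.91 ± 0.13; edgeR adjusted p = 0.0802).

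Rows of tRNAs annotated on the minor strand held most of the tRNA counts. Since the use of strand in counting is not given, these rows may include reads of the other strand. The minor-strand tRNA rows took 0.130%, 0.191% and 0.257% of the library under normal chow and 0.103%, 0.0847% and 0.112% under PE-MP chow. The 14 major-strand tRNAs together took 0.0158% ± 0.000859 and 0.0106% ± 0.00122 (SD, n = 3 per chow). Both shares were lower in every PE-MP library. As a share of all mitochondrial counts, minor-strand RNAs overlapped between chows, at 0.993%, 1.28% and 1.67% against 1.08%, 0.919% and 1.19% (exact permutation p = 0.4).

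A cluster of 4 minor-strand tRNAs between mt-Nd2 and mt-Co1 was uneven within normal chow. It is shown whole because the levels of its rows kept nearly the same order across libraries. The genes code for the tRNAs of alanine, asparagine, cysteine and tyrosine, in this order along the major strand.
mt-Ta: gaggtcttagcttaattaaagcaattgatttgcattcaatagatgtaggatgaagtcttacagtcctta
mt-Tn: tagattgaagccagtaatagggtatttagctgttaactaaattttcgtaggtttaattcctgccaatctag
mt-Tc: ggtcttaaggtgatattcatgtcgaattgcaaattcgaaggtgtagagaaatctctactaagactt
mt-Ty: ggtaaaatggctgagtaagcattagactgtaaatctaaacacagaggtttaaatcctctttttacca
The row of mt-Ta stood at 65.9, 177 and 286 CPM under normal chow and at 45.6, 56.7 and 73.9 under PE-MP chow. The largest of the 4, mt-Tn, was at 113, 324 and 506 CPM against 82.2, 101 and 131, and mt-Tc was at 103, 282 and 435 against 69.6, 85.3 and 112. In these 3 rows normal chow library 1 lay among the PE-MP libraries and normal chow library 3 was over 4 times higher. The row of mt-Ty, at 48.5, 110 and 145 CPM against 37.4, 35.1 and 43.2, did not overlap. Summed, the 4 stood at 330, 892 and 1373 CPM against 235, 278 and 361, with overlap (exact permutation p = 0.2). The ratio of mt-Ta to mt-Tn stayed between 0.545 and 0.584 in all 6 libraries and that of mt-Tc to mt-Tn between 0.846 and 0.913, while mt-Ty to mt-Tn ran from 0.287 to 0.455. Their fitted log2 fold changes were between -1.94 and -1.70 with wide errors, for example -1.90 ± 0.53 for mt-Tn (edgeR adjusted p = 0.177).

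Of the remaining tested tRNAs, those of histidine, serine and lysine had the smallest p. The histidine tRNA mt-Th was at 9.10, 12.9 and 14.4 CPM against 5.86, 6.21 and 6.82 (log2 fold change -1.25 ± 0.20; edgeR adjusted p = 0.123). Its neighbour mt-Ts2 was at 22.6, 23.1 and 34.5 CPM against 11.6, 14.9 and 15.1 (-1.25 ± 0.21; edgeR adjusted p = 0.123), and the lysine tRNA mt-Tk at 2.32, 1.52 and 2.44 against 0.872, 0.971 and 1.09 (-1.40 ± 0.25; edgeR adjusted p = 0.124). All 3 were separated by chow. The glutamate tRNA mt-Te, next to mt-Nd6 on the minor strand, was at 193, 312 and 288 CPM against 172, 158 and 177 (-0.95 ± 0.20; edgeR adjusted p = 0.134). There were 1.12 to 3.50 counts on mt-Te per count on mt-Nd6.

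The rarest tested tRNAs lie on the major strand. The glycine tRNA mt-Tg was at 2.02, 2.82 and 3.49 CPM against 1.33, 1.46 and 1.45 (log2 fold change -1.28 ± 0.26). The threonine tRNA mt-Tt was at 3.57, 3.16 and 5.69 CPM against 1.71, 2.14 and 2.51 (-1.27 ± 0.28), and the aspartate tRNA mt-Td at 0.949, 0.556 and 0.906 against 0.442, 0.412 and 0.435 (-1.20 ± 0.30). These 3 did not overlap between chows, and their edgeR adjusted p were 0.128, 0.135 and 0.146. The valine tRNA mt-Tv, at 0.488, 0.366 and 0.622 CPM against 0.204, 0.173 and 0.413, overlapped through PE-MP library 3 (-1.21 ± 0.42; edgeR adjusted p = 0.219). The arginine tRNA mt-Tr overlapped too, at 1.15, 2.19 and 1.30 CPM against 1.38, 0.984 and 1.18 (-0.69 ± 0.33; edgeR adjusted p = 0.323). The untested mt-Tf was uneven under normal chow, at 0.119, 0.307 and 0.0977 CPM against 0.147, 0.0798 and 0.0653, with overlap.

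Stretches of mitochondrial DNA have been copied into the nuclear genome, and annotated copies had rows of their own. Of 9 such copies, 5 matched a mitochondrial gene with 100% identity over their whole length: Gm10925 (678 bases of mt-Atp6), Gm28437 (783 bases of mt-Co3), Gm28661 (681 of mt-Co2), Gm28439 (876 of mt-Nd4) and Gm10222 (294 of mt-Nd4l). Sequence alone cannot assign a read from such a stretch to either gene. The counts were nonetheless uneven. Gm28661 held 0.994 to 0.997 counts per count on mt-Co2 and Gm10925 held 1.44 to 1.66 per count on mt-Atp6. By contrast Gm28439 held 6.204 to 132 per count on mt-Nd4, and Gm10222 stood at 1 in all libraries. All 9 copies together took 4.39% ± 0.197 of normal chow counts and 2.60% ± 0.155 of PE-MP counts (SD, n = 3 per chow). With their counts added to the mitochondrial mRNAs, the PE-MP share was 0.605 times the normal chow share, close to the 0.610 without them. Whether such reads were divided or counted in both rows is not given in the sources used here.

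**Figure D4:**
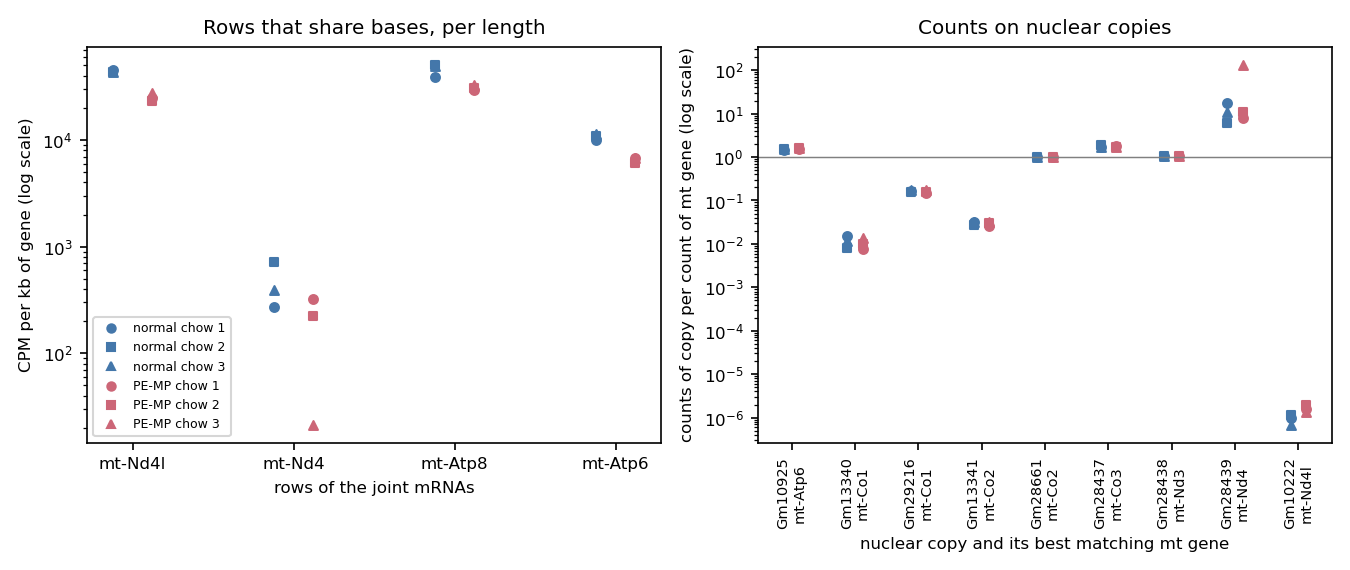
Left, CPM per kilobase (y axis, log scale) of the rows of the 2 joint mRNAs; right, counts on each nuclear copy per count on the mitochondrial gene it matches best (y axis, log scale); each symbol is 1 library. The mt-Nd4 row lies 60.04 to 1275 times below mt-Nd4l, and Gm28439 exceeds mt-Nd4 by 6.204 to 132 times, most in PE-MP library 3.

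Lists of nuclear genes that act with these RNAs had medians smaller in size than the -1.09 of the tested mitochondrial RNAs. Single genes could reach as low, such as Uqcr11 of complex III, named for its fold change (log2 fold change -1.11 ± 0.33, edgeR adjusted p = 0.185). Uqcr11 stood at 174, 133 and 220 CPM of total counts against 123, 113 and 59.9, with PE-MP library 3 far below the other PE-MP libraries. Among 76 tested nuclear subunits of the respiratory complexes and the ATP synthase, 75 had a negative log2 fold change, with a median of -0.44, and 0 passed the edgeR threshold in either direction. At an unadjusted p under 0.05, 55 were lower and 0 higher (8.82% and 9.1% of all genes). DESeq2 called 25 lower (3.48% of all genes) and limma-voom 0 (0.0665%). In CPM of total counts, 7 of the 76 lay wholly lower under PE-MP chow, against 2.65% of all genes. The medians were -0.48 for complex I, -0.33 for complex II, which has no mitochondrial subunit, -0.38 for complex III, -0.48 for complex IV and -0.43 for the ATP synthase. With total counts the median over all 76 was -0.14, and 18 were positive. The summed CPM of total counts of each complex overlapped between chows. Ndufa5, an accessory subunit of complex I, stood at 41.6, 44.6 and 47.7 CPM of total counts against 35.2, 34.9 and 38.0 (log2 fold change -0.61 ± 0.11; edgeR adjusted p = 0.124). Cox6b1 of complex IV was at 283, 199 and 296 CPM against 196, 169 and 189 (-0.79 ± 0.17; edgeR adjusted p = 0.134). Both are among the 7 without overlap.

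For genes that make and maintain mitochondrial RNA, the counts are read against all genes tested, of which 9.1% were higher and 8.82% lower at an unadjusted p under 0.05. DESeq2 called 3.1% higher and 3.48% lower. Of 18 tested genes of mitochondrial transcription and genome maintenance, 14 were positive with a median of 0.12, and 0 passed by edgeR, DESeq2 or limma-voom (3 higher and 1 lower at an unadjusted p under 0.05). Their summed CPM of total counts was 209 to 217 under normal chow and 276 to 284 under PE-MP chow, and 15 of the 18 lay wholly higher, against 34.6% of all genes. With total counts 17 were positive and the median was 0.42, where that of all genes was 0.32. The smallest p belonged to Mterf1b, of the mitochondrial termination factor family (log2 fold change 0.81 ± 0.30; edgeR adjusted p = 0.232), and Primpol, a primase-polymerase (0.59 ± 0.23; edgeR adjusted p = 0.253). Of 34 genes of RNA processing and stability, 17 were positive and 17 negative with a median of -0.013; by edgeR 0 passed, with 1 higher and 2 lower at an unadjusted p under 0.05. DESeq2 called 1 higher and limma-voom 0. The even split rested on the scaling, since with total counts 27 were positive and 7 negative, with a median of 0.29. The members with the smallest p were the deadenylase-like Angel2 (2.15 ± 0.73; edgeR adjusted p = 0.216) and Hsd17b10, a subunit of the RNase that cuts tRNA ends (-0.64 ± 0.22; edgeR adjusted p = 0.218).

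The 11 regulators of mitochondrial biogenesis had a median of 0.29 with 8 positive, and 0 passed by edgeR (0 higher and 1 lower at an unadjusted p under 0.05, where 9.1% of all genes were higher and 8.82% lower). DESeq2 called 1 lower (3.48% of all genes) and limma-voom 0. With total counts 10 were positive and the median was 0.59. The deacetylase gene Sirt3 (-0.68 ± 0.15; edgeR adjusted p = 0.132) and the coactivator gene Pprc1 (0.41 ± 0.18; edgeR adjusted p = 0.283) led this list by p. The 20 markers of mitochondrial mass, such as import and chaperone genes, had a median of -0.13 with 17 negative, and 0 passed by edgeR (1 higher and 3 lower at an unadjusted p under 0.05, against the same shares of all genes). DESeq2 called 1 higher and 2 lower (3.1% and 3.48% of all genes) and limma-voom 0. Their sign depended on the scaling: with total counts the median was 0.17 and 16 were positive. The chaperonin Hspe1 (-0.54 ± 0.12) and the fusion GTPase Opa1 (0.91 ± 0.20) had the smallest p, each with an edgeR adjusted p of 0.135.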

How the data were processed

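The deposited values are read counts by gene in integers with differing library totals, as the authors' file headers and the values show. The submitters' processing notes name bcl2fastq and the build GRCm39. Not given in the sources used here are the aligner, the counter, its annotation and its use of strand, nor whether the counts are tallies or rounded estimates. The 6 files of single libraries, 1 for each, held the same values as the table of the series. Shares and CPM were taken of total counts. Chows were compared with edgeR 4.0.16 (R 4.3.3, quasi-likelihood F test, robust, TMM, default filter) over 18043 genes. Benjamini-Hochberg adjustment was over all of them, with a threshold of 0.05. The fit was also run on simulated counts. These did not carry the difference in TMM factors between chows, so that run cannot judge the scaling. Single shares were compared by two-sided exact permutation (scipy 1.17.1). DESeq2 1.42.0 and limma 3.58.1 were alternatives. Gene lengths, strands, overlaps and sequences came from GENCODE M21 (GRCm38), so no coordinates are given; copies were matched with blastn 2.17.0. All 37 rows were named, with up to 2 genes of smallest p per pathway list, and Uqcr11 for its fold change. Lists of nuclear copies and retained RNAs are given in sum. Members and lists were chosen with earlier results of these data known.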

Additional observations from a re-analysis of the deposited data

How the results depend on the processing

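The count of mitochondrial RNAs that passed an adjusted p of 0.05, 0 of 31 with edgeR, was 25 with DESeq2, 4 with limma-voom, 3 with a filter of at least 1 CPM in all libraries of a group, 1 with no filter and 6 at an adjusted p of 0.1, all of them lower under PE-MP chow. Of all genes, 11 of 12333 were lower and 11 higher with that CPM filter, and 8 of 30801 were lower and 15 higher with no filter. With 1 library left out the count of members ran from 0 to 16, where 16 was without normal chow library 2. The count of members was 0 with the replicate number as a block. There 27 members were lower and 0 higher at an unadjusted p under 0.05, against 1345 lower and 1503 higher of all 18043 genes. Same-numbered libraries of the 2 chows did not deviate together (correlations 0.0027, 0.040 and 0.14), so the numbers are not taken to pair them. It was also 0 with the 2 joint mRNAs summed or with nuclear copies added, alternatives chosen after seeing the data. All tested members other than mt-Rnr2 kept a negative fold change in every alternative; mt-Rnr2, which ran from -0.56 (without normal chow library 1) to 0.80 with 1 library left out, turned positive with limma-voom (0.18), the replicate block (0.16), total counts (0.15), without PE-MP library 3 (0.0032) and without normal chow library 2 (0.80), and the cause was not tested. With 1 library left out, the log2 ratio of shares ran from -0.74 to -0.69 for mRNAs, -1.12 to -0.67 for tRNAs, -1.17 to -0.75 for the minor strand and -0.34 to 0.69 for rRNAs, which reversed without PE-MP library 3 (0.15) and normal chow library 2 (0.69). Within mitochondrial counts it ran from 0.37 to 1.33 for rRNAs, -0.41 to -0.0059 for tRNAs and -0.47 to -0.092 for the minor strand. Within mRNA counts it ran from 0.074 to 0.12 for complex I, -0.036 to 0.16 for complex III, -0.19 to -0.061 for complex IV and 0.017 to 0.13 for the ATP synthase; complex III reversed without normal chow library 1 (-0.036) and normal chow library 3 (-0.0063). Other denominators turned no direction. The row of mt-Tf, at 6 to 21 counts, is too shallow to show a difference. The 5 tRNA rows at 1 or 2 are not read as levels and cannot show a difference either.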
